A study of Homo sapiens with 4 samples.

Results

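Genes of the BCL2 family decide whether a cell keeps or loses the integrity of its mitochondria, and 10 of them were followed here in bladder cancer cells: BCL2, BCL2L1, BCL2L2, MCL1, BAK1, BID, BCL2L11, BIK, BMF and PMAIP1. They were taken by name, by matching Ensembl identifiers to these symbols, and not by how they moved. They were 10 of the 27629 genes listed in any of the 4 libraries and 10 of the 24039 genes listed in all 4. The cells were UM-UC-3, a human line established from bladder cancer, transfected for 48 h with 75 nM siRNA using a lipid reagent, which the control cells received too. The control cells were given a negative control siRNA. The other cells were given a pair of siRNAs against hnRNPK (si-hnRNPK), an RNA- and DNA-binding protein, against PTBP1 (si-PTBP1), a splicing repressor that binds pyrimidine-rich RNA, or against lncRNA-LBCS, a long non-coding RNA (si-lncRNA-LBCS). Each condition was 1 library of total RNA, so no difference could be set against the spread between cultures, and no p-value is given across genes.

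The proteins of this family share short BCL2 homology (BH) domains. The guardians (BCL2, BCL-XL from BCL2L1, BCL-w from BCL2L2, and MCL1) hold the pore formers BAX and BAK in check at the outer mitochondrial membrane, and the BH3-only proteins (BID, BIM from BCL2L11, BIK, BMF and NOXA from PMAIP1) bind the guardians or the pore formers and tip the cell towards pore formation. Once the pore opens, cytochrome c leaves the mitochondria and the caspases are activated. The amounts are set at the level of protein stability and splicing as well as transcription, and mRNA levels alone do not give the amounts of protein.

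The expression unit was CPM, a gene's reads after scaling every library to a common total. The reads on listed genes ranged from 54301152 (si-hnRNPK) to 70232674 (si-lncRNA-LBCS), and 1 read was worth between 0.0142 and 0.0184 CPM. HNRNPK mRNA in the si-hnRNPK library was at 24.0% of control (95% interval 23.5 to 24.5%) and PTBP1 mRNA in the si-PTBP1 library at 32.0% (31.0 to 33.1%). The gene matched by the lncRNA-LBCS siRNAs (LNC-LBCS, ENSG00000228412) was at 81.8% of control in its own library with 103 reads against 110, and the interval of 61.9 to 108% includes no change. It was at 191% of control (150 to 244%) in the si-hnRNPK library and 213% (168 to 271%) in the si-PTBP1 library. The label of that library could thus not be checked, and it is called the si-lncRNA-LBCS-labelled library throughout. All intervals are exact 95% intervals of the reads and cover counting error only. Of 16 urothelial markers, 5 or 6 reached 1 CPM in each library. KRT8 (63.0 to 94.8 CPM), KRT18 (75.2 to 121.4 CPM), KRT7, FOXA1 and PPARG did so in all 4, while UPK1A, UPK1B, UPK2, GATA3 and KRT5, among others, stayed under it in all 4. TP63 was at 0.342 CPM in control cells, 2.50 after si-hnRNPK, 0.513 in the library given the lncRNA-LBCS siRNAs and 2.37 after si-PTBP1, past a change of 1 in log2(CPM + 1) in the si-hnRNPK and si-PTBP1 libraries, and its part in the results was not tested. The 7 mesenchymal markers reached it in every library, and 0 of 10 white blood cell and red cell markers did. A scaling on the median ratio of 12362 genes shifted the si-hnRNPK library by -0.11 and the si-PTBP1 library by 0.13 on the log2 scale relative to control, and the si-lncRNA-LBCS-labelled library by -0.0091. Small changes in the first of these libraries thus read higher by 0.11 on that scale, and in the si-PTBP1 library lower by 0.13.

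The siRNAs are shown because a short stretch of each guide strand, its seed (guide bases 2 to 8), can also pair with other mRNAs. The sense strands are given 5′ to 3′ as the labels list them, with capitals on the 7 bases that a target must carry to pair with that seed.
control siRNA: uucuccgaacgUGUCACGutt
si-hnRNPK siRNA 1: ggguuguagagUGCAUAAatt
si-hnRNPK siRNA 2: gccuccaucuaGAAGAGAutt
si-lncRNA-LBCS siRNA 1: gcugcucauuuGUCUGAUctt
si-lncRNA-LBCS siRNA 2: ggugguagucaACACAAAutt
si-PTBP1 siRNA 1: gccucaacgucAAGUACAatt
si-PTBP1 siRNA 2: cccucauugacCUGCACAatt
None of the 19 paired bases of any siRNA matched a family gene in full. In the longest annotated 3′ UTR of each family gene, 8 seed matches were found, in BCL2, BID, BMF, BCL2L2 and BCL2L11. BCL2L1, MCL1, BAK1, BIK and PMAIP1 had none for any of the 7 siRNAs. The matches shown are those in family genes whose level differed from control beyond counting error in the library given that siRNA, each with 8 bases on either side and the match in capitals.
BMF, si-PTBP1 siRNA 2: gttgttcaCTGCACAagggcacc
BID, si-PTBP1 siRNA 1: gtttattaAAGTACAaccataga
BID, si-PTBP1 siRNA 2: acatgaatCTGCACAtctgtaaa
BCL2L2, si-lncRNA-LBCS siRNA 2: tctagggcACACAAAcactattt
The BMF match lies at bases 1591 to 1597 of a 3′ UTR of 3897 bases. The BID matches lie at bases 391 to 397 and 252 to 258 of 1442 bases. Such matches are common: the share of 11922 genes with at least 1 match in the longest 3′ UTR was 13.1% and 15.02% for the si-PTBP1 siRNAs and 18.2% for siRNA 2 against lncRNA-LBCS. BID was lower in the si-PTBP1 library while BMF and BCL2L2 were higher in the libraries whose siRNA matches them, and the part of the seed in these differences was not tested.

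MCL1 had the highest CPM of the family in every library and BIK the lowest. In the control library MCL1 stood at 197.1 CPM and BIK at 0.114 CPM (7 reads). The remaining genes lay between 0.815 CPM (BMF) and 53.7 CPM (BID). BIK stayed under 1 CPM in all 4 libraries, and BMF in the control and si-hnRNPK libraries. Longer mRNAs collect more reads, so genes are compared with each other per length. Per kilobase of exon sequence MCL1 was still the highest in each library, between 33.3 and 46.9 CPM per kb. The lowest was BIK in control cells (0.120 CPM per kb, beside 0.150 for BMF), but BMF after si-hnRNPK (0.162, beside 0.309 for BIK).

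**Figure D1:**
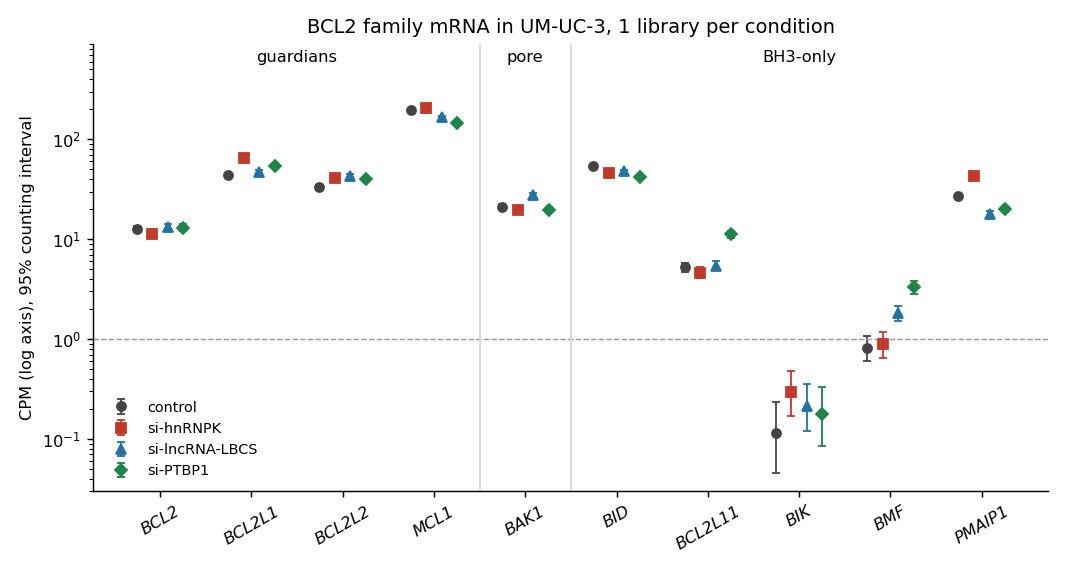
CPM on a log axis for each of the 10 BCL2 family genes, with 1 point per library and bars for the exact 95% Poisson interval of its reads; the dashed line is 1 CPM. BCL2L11 and BMF were highest in the si-PTBP1 library, BCL2L1 and PMAIP1 in the si-hnRNPK library, and BIK lay under 1 CPM in all 4.

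Among the guardians, BCL2L1 moved the most in the si-hnRNPK library and MCL1 in the si-PTBP1 library. BCL2L1 (ENSG00000171552, chromosome 20 from 31664452 to 31723989, minus strand, GRCh38) encodes BCL-XL and, from another splice site, the shorter BCL-XS, which promotes death. The table counts the gene as a whole and does not part the isoforms. BCL2L1 stood at 43.5 CPM in control cells, 65.2 after si-hnRNPK, 47.1 in the si-lncRNA-LBCS-labelled library and 54.6 after si-PTBP1. Control was the lowest of the 4, and each step in the order of levels was larger than counting error. The si-hnRNPK level was 1.499 times control (interval 1.43 to 1.58), a change of 0.57 in log2(CPM + 1), and the si-PTBP1 level was 1.26 times control (1.19 to 1.32), a change of 0.32. An antisense gene, ABALON, shares 1424 exonic bases with BCL2L1 and was not listed in any library. As the strand setting of the counting is not given in the sources used here, whether reads from ABALON were counted for BCL2L1 is not known.

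MCL1 (ENSG00000143384, chromosome 1 from 150574551 to 150579738, minus strand) encodes a guardian with a very short-lived protein. It stood at 197.1 CPM in control cells, 205.1 after si-hnRNPK, 167.1 in the si-lncRNA-LBCS-labelled library and 145.4 after si-PTBP1. The last 2 lay below control and si-hnRNPK marginally above it, and all 3 steps in the order exceeded counting error. Against control the si-PTBP1 level was 0.738 times (interval 0.717 to 0.759), a change of -0.44, and that of the si-lncRNA-LBCS-labelled library was 0.848 times (0.826 to 0.869), a change of -0.24. At this depth counting error is small, and how far cultures differ by themselves is not known from 1 library.

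BCL2L2 (ENSG00000129473, chromosome 14 from 23298790 to 23311759, plus strand), the gene for BCL-w, was at 33.3 CPM in control cells, 40.9 after si-hnRNPK, 43.0 in the si-lncRNA-LBCS-labelled library and 40.4 after si-PTBP1. It was lowest in the control, while neighbours among the other 3 libraries did not differ beyond counting error. The changes in log2(CPM + 1) were 0.29, 0.36 and 0.27 in that order. The readthrough gene BCL2L2-PABPN1, which shares 813 exonic bases with BCL2L2 on the same strand, was listed under its own identifier and stayed between 0.0921 and 0.472 CPM. PPP1R3E, on the opposite strand, shares 206 exonic bases with BCL2L2. It was at 8.72 CPM in control cells, 7.59 after si-hnRNPK, 11.6 in the si-lncRNA-LBCS-labelled library and 10.4 after si-PTBP1. Its part in the BCL2L2 counts was not tested.

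BCL2 itself (ENSG00000171791, chromosome 18 from 63123346 to 63320128, minus strand), the founder of the family, was at 12.5 CPM in control cells, 11.3 after si-hnRNPK, 13.4 in the si-lncRNA-LBCS-labelled library and 13.1 after si-PTBP1. Neither its neighbours in this order nor any comparison with control differed beyond counting error. The changes were -0.14, 0.087 and 0.053, of which the last turns to -0.064 with median-ratio scaling. The ratio to control could lie between 0.807 and 1.00 in the si-hnRNPK library, between 0.969 and 1.17 in the si-lncRNA-LBCS-labelled library and between 0.939 and 1.15 in the si-PTBP1 library.

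BAK1 (ENSG00000030110, chromosome 6 from 33572547 to 33580293, minus strand) encodes BAK, the pore former that sits in the outer mitochondrial membrane. It was at 21.2 CPM in control cells, 19.4 after si-hnRNPK, 27.5 in the si-lncRNA-LBCS-labelled library and 19.7 after si-PTBP1. The si-lncRNA-LBCS-labelled library was the highest, at 1.30 times control (interval 1.21 to 1.39), a change of 0.36. The si-hnRNPK level was 0.914 times control (0.842 to 0.992), and the si-PTBP1 level between them did not differ from either neighbour beyond counting error.

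Among the BH3-only genes, BMF, BCL2L11 and PMAIP1 spanned a wider range over the libraries than any guardian or BAK1. The highest level was 4.07 times the lowest for BMF, 2.44 times for BCL2L11 and 2.40 times for PMAIP1, but 1.29 times for BID. It was 1.499 times at most for a guardian and 1.42 times for BAK1. For BIK it was 2.58 times, on 7 to 16 reads, and few reads widen such a range by counting error alone. BMF (ENSG00000104081, chromosome 15 from 40087890 to 40108892, minus strand) encodes a BH3-only protein tied to the cytoskeleton that is freed when cells lose their attachment. It had 50 reads in control cells (0.815 CPM), 48 after si-hnRNPK (0.884 CPM), 128 in the si-lncRNA-LBCS-labelled library (1.82 CPM) and 186 after si-PTBP1 (3.32 CPM). The control and si-hnRNPK libraries were alike within counting error (ratio 1.08, interval 0.715 to 1.65), and the next steps up were each larger than it. The si-PTBP1 level was 4.07 times control (2.97 to 5.68) and that of the si-lncRNA-LBCS-labelled library 2.24 times (1.60 to 3.17). On the log2(CPM + 1) scale, which shrinks the change of low genes, these were 1.25 and 0.64, at percentiles 98.9 and 96.9 among all genes tested. BMF-AS1, on the opposite strand, shares 461 exonic bases with BMF and was not listed in any library. As the strand setting is not given, whether reads from it were counted for BMF is not known.

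BCL2L11 (ENSG00000153094, chromosome 2 from 111119378 to 111168447, plus strand) encodes BIM, a BH3-only protein that binds all the guardians. It had 321 reads in control cells (5.23 CPM), 250 after si-hnRNPK (4.604 CPM), 380 in the si-lncRNA-LBCS-labelled library (5.41 CPM) and 630 after si-PTBP1 (11.2 CPM). The first 3 did not differ from their neighbours in the order beyond counting error, and the si-PTBP1 library stood alone at 2.15 times control (interval 1.88 to 2.47). In log2(CPM + 1) the changes were -0.15, 0.041 and 0.97, so that the last lay just under the threshold of 1. BCL2L11 shares 727 exonic bases with MIR4435-2HG on the opposite strand, which was at 56.0 CPM in control cells, 37.8 after si-hnRNPK, 61.2 in the si-lncRNA-LBCS-labelled library and 49.5 after si-PTBP1. That gene was below control in the library where BCL2L11 was highest, and its part in the BCL2L11 counts was not tested.

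PMAIP1 (ENSG00000141682, chromosome 18 from 59899948 to 59904306, plus strand) encodes NOXA, a stress-responsive BH3-only protein that binds MCL1 above all. It was at 27.0 CPM in control cells, 43.1 after si-hnRNPK, 17.98 in the si-lncRNA-LBCS-labelled library and 20.1 after si-PTBP1. The si-hnRNPK library lay above control and the other 2 below it, with every step larger than counting error. The ratios to control were 1.60 (interval 1.499 to 1.70), 0.666 (0.618 to 0.717) and 0.743 (0.688 to 0.802), and the changes in log2(CPM + 1) were 0.66, -0.56 and -0.41.

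BID (ENSG00000015475, chromosome 22 from 17734138 to 17774770, minus strand) links death receptors to the mitochondria once caspase-8 has cut it. It was at 53.7 CPM in control cells, 46.1 after si-hnRNPK, 47.6 in the si-lncRNA-LBCS-labelled library and 41.8 after si-PTBP1. Control was the highest of the 4, and the 2 middle libraries did not differ beyond counting error. The changes were -0.22, -0.17 and -0.35, the last at 0.778 times control (interval 0.737 to 0.820).

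BIK (ENSG00000100290, chromosome 22 from 43110748 to 43129712, plus strand), a BH3-only gene whose protein sits mostly at the endoplasmic reticulum, had 7 reads in control cells, 16 after si-hnRNPK, 15 in the si-lncRNA-LBCS-labelled library and 10 after si-PTBP1. No neighbours in the order of its levels differed beyond counting error. The widest ratio, si-hnRNPK over control, was 2.58 with an interval of 1.01 to 7.43, and with so few reads a difference was barely detectable at this depth.

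Calls were made by size, as a change of more than 1 in log2(CPM + 1), among genes that reached 1 CPM in either library of a comparison. The 3 comparisons share the control library, so a value of the control that is off by chance enters all 3. In the si-hnRNPK library 8 of the 10 family genes passed the filter on low values and 0 passed the threshold, where 3.55% of 13672 genes were called higher and 3.93% lower. At 1.5-fold PMAIP1 alone passed, with 9.89% of all genes higher and 15.8% lower. In the si-lncRNA-LBCS-labelled library 9 passed the filter and 0 the threshold, with 0.378% of 13492 genes higher and 1.01% lower. At 1.5-fold BMF passed, beside 4.14% higher and 5.74% lower of all genes. In the si-PTBP1 library 9 passed the filter and BMF passed the threshold, with 2.92% of 13855 genes higher and 0.613% lower. At 1.5-fold BCL2L11 joined BMF, beside 12.1% higher and 3.12% lower. BMF passed the filter only in the libraries where it was high, so that its calls carry that choice.

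A binomial comparison of the reads, adjusted by Benjamini-Hochberg over all genes at 0.05, called 6 family genes in the si-hnRNPK library, where it called 79.5% of all genes, 7 in the si-lncRNA-LBCS-labelled library (70.2%) and 7 in the si-PTBP1 library (73.5%). It compares 2 libraries and not the conditions, and shares of this size say little about any single gene. The median change of the family genes tested was -0.033 in the si-hnRNPK library beside -0.11 over all genes, 0.087 beside -0.014 in the si-lncRNA-LBCS-labelled library, and 0.053 beside 0.12 in the si-PTBP1 library. With median-ratio scaling, which moves all genes of a library nearly alike, the first of these was 0.076 and the last -0.064. Changes under 0.5 in size made up 6 of 8, 7 of 9 and 7 of 9 of the family genes tested, and 67.2%, 85.2% and 78.9% of all genes.

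**Figure D2:**
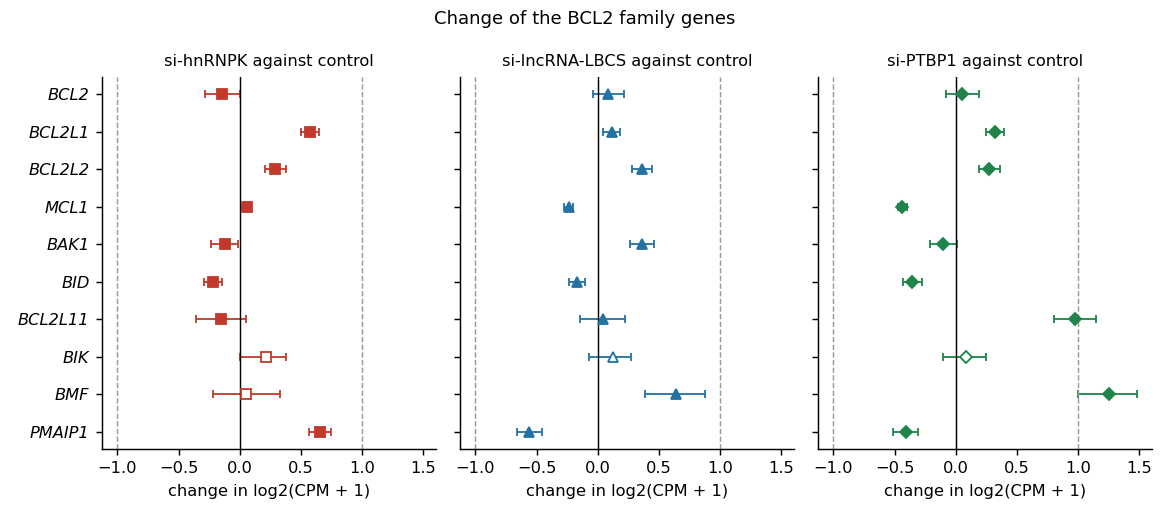
Change in log2(CPM + 1) against control for the 10 BCL2 family genes in each comparison, with bars for the 95% counting interval; dashed lines are the threshold of 1 in either direction, and open symbols are genes under 1 CPM in both libraries. BMF in the si-PTBP1 library (1.25) was the only gene past a dashed line, and BCL2L11 (0.97) lay just under it.

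**Figure D3:**
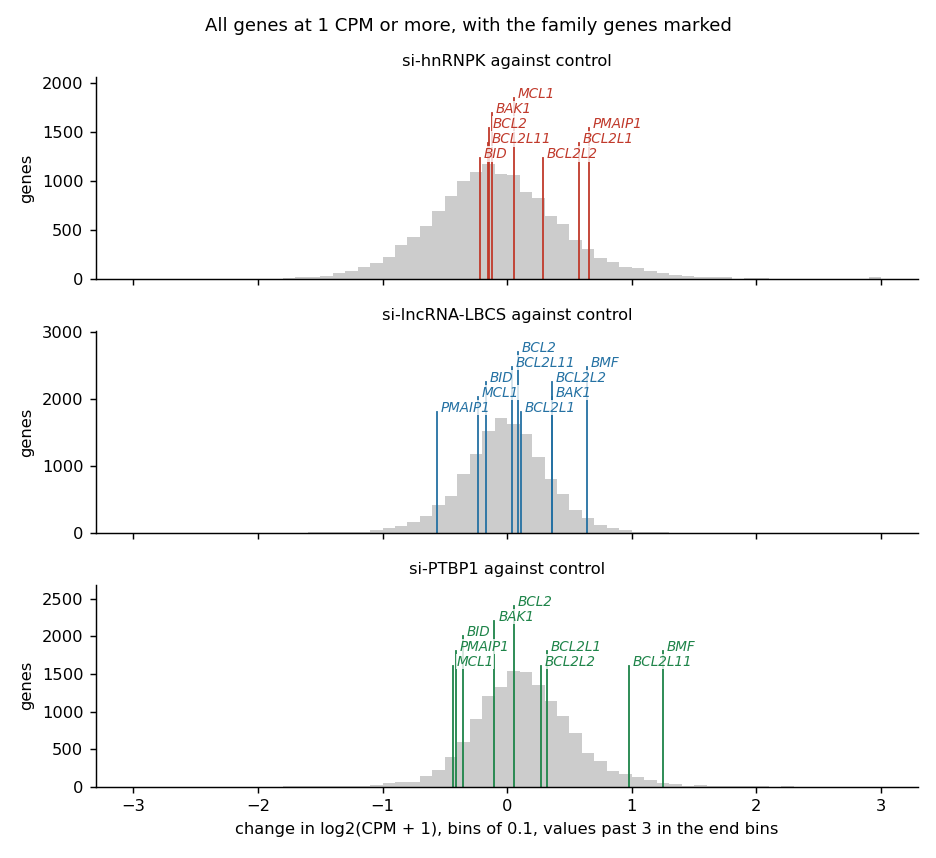
Number of genes by change in log2(CPM + 1) in bins of 0.1 for all genes at 1 CPM or more, with a line for each BCL2 family gene that passed the filter; values past 3 are in the end bins. Most family genes lay within the bulk of all genes, with BMF and BCL2L11 in the upper tail of the si-PTBP1 comparison and BMF in that of the si-lncRNA-LBCS-labelled library.

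Per kilobase of exon sequence the guardians summed to 67.2 CPM per kb in control cells, 77.3 after si-hnRNPK, 63.8 in the si-lncRNA-LBCS-labelled library and 60.5 after si-PTBP1. The BH3-only genes summed to 25.2, 30.8, 20.1 and 20.9 CPM per kb in the same order. Both sums were highest in the si-hnRNPK library and below control in the other 2, and the sum of these 4 guardians exceeded that of these 5 BH3-only genes in each. The sums leave out other genes of the same roles, such as BBC3, BAD and BCL2A1, and are not totals of guardian or BH3-only mRNA. The ratio of the sums was 2.67 in control cells, 2.51 after si-hnRNPK, 3.17 in the si-lncRNA-LBCS-labelled library and 2.90 after si-PTBP1. With the longest coding transcript as the length it was 2.12, 2.14, 2.48 and 2.36, so that the place of the si-hnRNPK library just below control turned into one just above it.

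Within the guardians, MCL1 made up 67.1% of the summed level per length in control cells, 60.7% after si-hnRNPK, 59.9% in the si-lncRNA-LBCS-labelled library and 55.0% in the si-PTBP1 library. BCL2L1 made up 19.5%, 25.4%, 22.3% and 27.2%. In each of the 3 libraries other than the control a smaller share was MCL1 and a larger share BCL2L1. Within the BH3-only genes, PMAIP1 made up 47.9% in control cells, 62.6% after si-hnRNPK, 40.0% in the si-lncRNA-LBCS-labelled library and 43.0% after si-PTBP1. BID made up 47.9%, 33.6%, 53.2% and 45.0%, while BCL2L11 and BMF together with BIK filled the small rest. With the longest coding transcript as the length, BID made up 58.7%, 44.0%, 63.7% and 55.6% in the same order. PMAIP1 then made up 37.8%, 52.7%, 30.8% and 34.2%. The near-equal shares of the BID and PMAIP1 genes in control cells thus held for the exon length only. Per kilobase of exon sequence, the share of BCL2L11 was 3.11% in control cells and 8.09% after si-PTBP1, and that of BMF 0.593% and 2.92%.

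**Figure D4:**
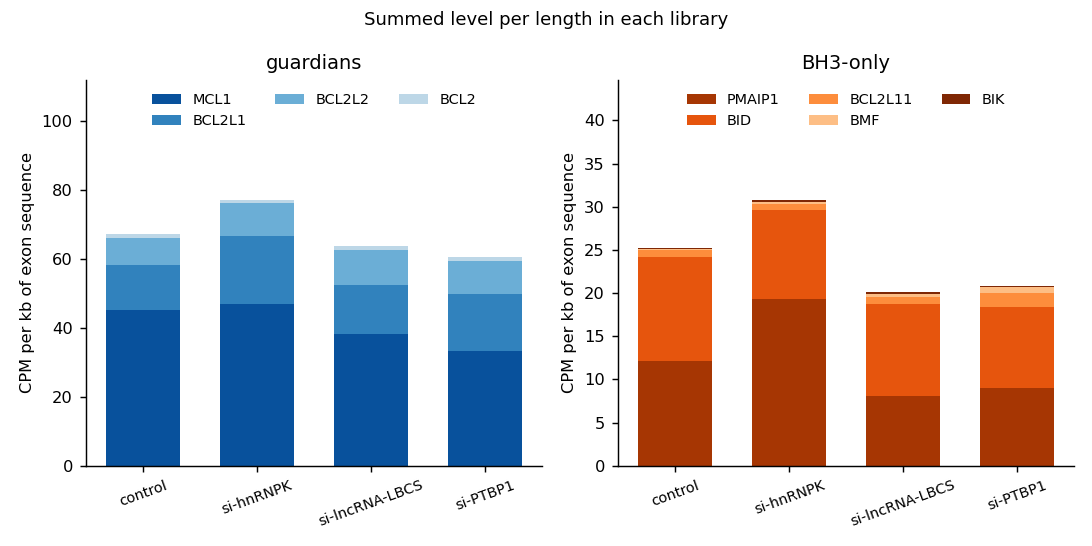
Stacked bars of CPM per kb of exon sequence for the guardians (left) and the BH3-only genes (right) in each library, with axes that start at 0 and differ between the panels. MCL1 was the largest part of the guardians in every library, and PMAIP1 and BID most of the BH3-only sum.

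A list of 16 other genes goes beyond shared BH domains, as with BNIP2 and BCLAF1. Of these 16 genes listed with the family, 12 passed the filter in each comparison. In the si-hnRNPK library, where 3.55% of all genes were called higher and 3.93% lower, 2 passed the threshold upwards and 0 downwards. They were BBC3, which encodes PUMA, a BH3-only protein that binds all the guardians, and BCL2L13, which encodes a mitochondrial protein that acts as a receptor for mitophagy. BBC3 was at 5.64 CPM in control cells, 20.6 after si-hnRNPK, 5.44 in the si-lncRNA-LBCS-labelled library and 9.60 after si-PTBP1, a change of 1.71 in the si-hnRNPK library (3.66 times control, interval 3.24 to 4.14). BCL2L13 was at 50.4, 108.2, 68.9 and 74.8 CPM in the same order, a change of 1.09 in the si-hnRNPK library.

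BCL2A1, a guardian induced by NF-kappaB, was at 17.4 CPM in control cells, 22.2 after si-hnRNPK, 6.65 in the si-lncRNA-LBCS-labelled library and 6.37 after si-PTBP1. It was below the threshold of -1 in the last 2, with changes of -1.27 and -1.32. It was the only one of the 12 past the threshold in the si-lncRNA-LBCS-labelled library, where 0.378% of all genes were called higher and 1.01% lower. MCL1 and PMAIP1 were also below control in these 2 libraries. BNIP3, a mitophagy receptor induced by hypoxia, was at 480.8 CPM in control cells and 200.6 after si-PTBP1, a change of -1.26. BAX, the pore former that shuttles from the cytosol, was at 28.0, 32.5, 30.6 and 31.3 CPM, with changes of 0.21, 0.12 and 0.16.

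**Figure D5:**
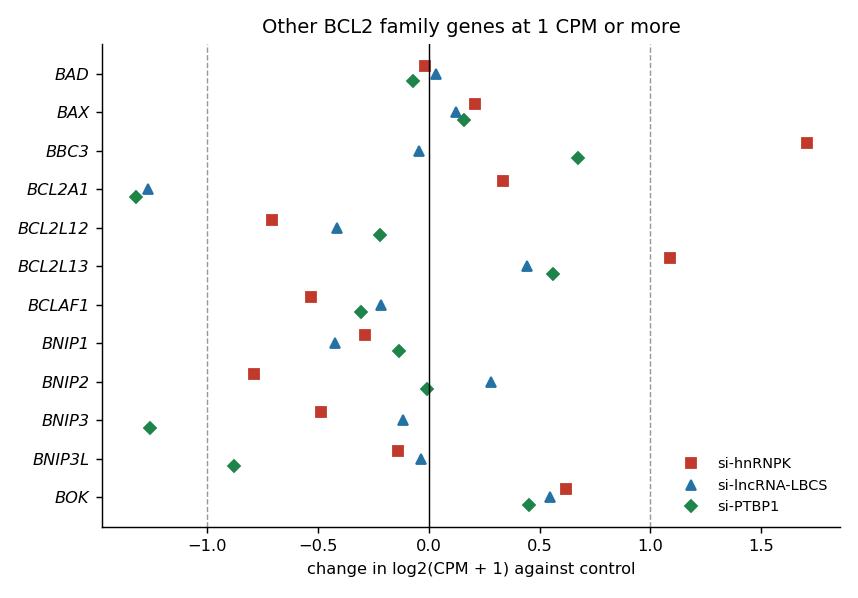
Change in log2(CPM + 1) against control for the 12 other genes listed with the BCL2 family that passed the filter. Each library compared with control has 1 symbol, and dashed lines are the threshold of 1 in either direction. BBC3 (1.71) and BCL2L13 (1.09) passed it in the si-hnRNPK library, BCL2A1 in the si-lncRNA-LBCS-labelled library (-1.27) and the si-PTBP1 library (-1.32), and BNIP3 (-1.26) in the si-PTBP1 library.

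Downstream of the pore, 0 of 11 genes of mitochondrial release and the apoptosome passed the threshold in any comparison. Over all genes, 3.55% were called higher and 3.93% lower in the si-hnRNPK library. These shares were 0.378% and 1.01% in the si-lncRNA-LBCS-labelled library, and 2.92% and 0.613% in the si-PTBP1 library. A count of 0 among 11 genes is thus near these shares. CASP9, the initiator caspase of the apoptosome, had the highest value of the list, 0.69 in the si-PTBP1 library. Of 19 tested genes whose products act on the family proteins, 1 passed, DYNLL2, the dynein light chain that holds BMF to the actin cytoskeleton. It was at 6.79 CPM in control cells, 17.0 after si-hnRNPK, 11.4 in the si-lncRNA-LBCS-labelled library and 7.15 after si-PTBP1, a change of 1.20 in the si-hnRNPK library. BMF and DYNLL2 were thus highest in different libraries.

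Of 16 tested transcription factors that are known to act on family genes, those past the threshold in the si-hnRNPK library included IRF1 (1.49) and STAT3 (1.20), of the interferon and cytokine pathways, with IRF1 at 29.2 CPM in the control and 83.6 in the si-hnRNPK library. In the other 2 libraries 0 of the 16 passed in either direction. Over all genes, 0.378% were called higher and 1.01% lower in the si-lncRNA-LBCS-labelled library, and 2.92% and 0.613% in the si-PTBP1 library. FOXO1, a factor that activates BCL2L11 when AKT signalling is low, was at 3.55 CPM in control cells, 2.60 after si-hnRNPK, 2.58 in the si-lncRNA-LBCS-labelled library and 7.65 after si-PTBP1. It was highest in the library where BCL2L11 was highest, with a change of 0.93, whereas FOXO3 was at 57.3 and 45.6 CPM in the control and si-PTBP1 libraries. The part of these factors in the levels of the family genes was not tested.

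Promoter sequence from RefSeq (GRCh38.p14, 250 bases before to 50 after each start) was matched for 7 of the 10 genes, in 13 windows. Some windows of BID overlap. The promoters of 2 genes that differed in the si-PTBP1 library are shown, with capitals on the only motif found in them.
BCL2L11, chr2:111120664-111120963, plus strand: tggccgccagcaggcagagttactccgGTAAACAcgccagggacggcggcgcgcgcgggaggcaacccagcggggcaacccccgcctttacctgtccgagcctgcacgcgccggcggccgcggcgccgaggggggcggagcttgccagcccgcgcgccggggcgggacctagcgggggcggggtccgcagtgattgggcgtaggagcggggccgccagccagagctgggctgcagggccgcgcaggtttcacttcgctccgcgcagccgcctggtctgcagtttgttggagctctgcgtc
BMF, chr15:40108830-40109129, minus strand: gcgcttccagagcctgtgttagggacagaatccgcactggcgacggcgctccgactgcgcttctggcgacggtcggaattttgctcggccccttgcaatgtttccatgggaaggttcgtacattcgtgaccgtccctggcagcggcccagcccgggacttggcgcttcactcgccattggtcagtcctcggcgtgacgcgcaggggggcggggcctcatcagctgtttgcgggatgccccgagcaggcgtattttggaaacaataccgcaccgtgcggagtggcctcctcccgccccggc
PMAIP1, which differed in all 3 comparisons, had 1 window.
PMAIP1, chr18:59899746-59900045, plus strand: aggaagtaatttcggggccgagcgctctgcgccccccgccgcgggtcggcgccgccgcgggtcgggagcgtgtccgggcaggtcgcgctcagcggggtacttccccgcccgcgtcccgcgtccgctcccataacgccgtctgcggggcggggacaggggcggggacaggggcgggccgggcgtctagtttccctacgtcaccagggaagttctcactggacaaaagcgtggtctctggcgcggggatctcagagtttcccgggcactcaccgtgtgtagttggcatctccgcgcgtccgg
The BCL2L11 window holds the FOXO motif GTAAACA, found in 3.42% of 35116 promoters of this length. The PMAIP1 window and both BMF windows hold none of the 8 motifs searched on both strands.

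Among the other motifs, CCCTCCC is the core of the CT element to which hnRNPK binds. It was found in 4 of the 13 windows, from 3 of the 7 genes matched (BCL2, BCL2L1 and BID), and in 26.6% of all promoters. The BID windows with this motif overlap and hold the same sites, so the count of windows includes these sites more than once. CCCCACCC was found in BAK1 and BCL2 (11.1% of all) and CACGTG, an E-box, in BID (7.26%). The core of the interferon-stimulated response element (3.57%), TTCNNNGAA, a STAT motif (7.66%), TGACGTCA (1.85%) and TGACGTAA (0.416%) were found in 0 of the 13 windows. A window of BBC3, the other listed family gene with the highest change in the si-hnRNPK library, was searched too. No window of the rest of that list was searched. The BBC3 window holds the core of the interferon-stimulated response element at positions 26 and 32 from the start, in overlapping matches, and CACGTG. BBC3 changed by 1.71 in the si-hnRNPK library, and the part of these motifs in its level was not tested. In the si-hnRNPK library BCL2L1 was higher than control, BID was lower and BCL2 did not differ beyond counting error. The part of the motif CCCTCCC in these levels was not tested. A match is a description of the letters and not of binding.

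For BMF, the family gene past the threshold, the 3 genes of 9452 with the most similar changes over the 3 comparisons were TMEM184B, TNS2 and NPAS3, with Euclidean distances of 0.196, 0.207 and 0.218 on the log2 scale. The distances were taken on log2(CPM + 1), on which the low BMF is shrunk and the genes it was compared with, all at 10 CPM or more in some library, hardly are. Without the pseudocount the changes of BMF were 1.16 in the si-lncRNA-LBCS-labelled library and 2.03 in the si-PTBP1 library, so the likeness is given for the log2(CPM + 1) scale only. TMEM184B, a membrane protein gene, was at 14.4 CPM in control cells, 16.5 after si-hnRNPK, 20.9 in the si-lncRNA-LBCS-labelled library and 34.1 after si-PTBP1. The likeness rests on 3 changes that share 1 control library.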

How the data were processed

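The authors deposited 1 table of CPM per library with Ensembl identifiers, from total RNA sequenced as 100-base paired-end reads. The genome build is hg19 per the labels' processing notes, while the aligner, counter, annotation and strand setting are not given in the sources used here. The values were whole multiples of 1 read for 100% of genes with reads (within 0.01 read), which gave the reads. A binomial comparison of these reads called 10870 of 13672 genes (si-hnRNPK), 9478 of 13492 (si-lncRNA-LBCS-labelled library) and 10182 of 13855 (si-PTBP1).

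Changes are differences in log2(CPM + 1), a scale on which low genes appear to change less. Counting intervals (95%) were exact, by Clopper-Pearson for ratios and Poisson for levels. Groups came from the sample labels. Genes named were all 10 family genes, listed pathway genes past the threshold or described beside a family gene, the siRNA targets, the marker genes and the 3 genes at 10 CPM or more nearest to a family gene past the threshold; HNRNPK and PTBP1 checked the labels. CASP9 and BAX were singled out after their values were seen, and some listed genes are not reported here. The genes and lists were chosen with earlier results of these data known. Gene positions, exon lengths and 3′ UTRs are from GENCODE 29 (GRCh38), joined by identifier. Alternatives were a 1.5-fold threshold, a 5 CPM filter or none, a 0.1 CPM pseudocount, median-ratio scaling, a 3-library reference, the binomial test and no pseudocount. Scripts were tested on simulated data. Tools were scipy 1.17.1, statsmodels 0.14.6, pandas 2.3.3 and numpy 2.4.6 under Python 3.11.15, with plots from matplotlib 3.10.9.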

Additional observations from a re-analysis of the deposited data

How the results depend on the processing

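The count of family genes past the threshold moved with the size of the threshold, the pseudocount, the filter and the reference. In the si-hnRNPK comparison it was 0 and became 1 (PMAIP1) at 1.5-fold. In the si-lncRNA-LBCS-labelled library it was 0 and became 1 (BMF) with a pseudocount of 0.1 CPM, at 1.5-fold, or with no pseudocount, an alternative chosen after seeing the data. In the si-PTBP1 library it was 1 (BMF) and became 2 (BCL2L11 and BMF) with a pseudocount of 0.1 CPM, at 1.5-fold, against the geometric mean of the other 3 libraries, or with no pseudocount. It became 0 with a filter of 5 CPM, which removes BMF. The median change of the family genes in the si-hnRNPK library was -0.033 and turned to 0.076 with median-ratio scaling, 0.055 with no filter and 0.019 with the 3-library reference. That in the si-PTBP1 library was 0.053 and turned to -0.064 with median-ratio scaling and -0.025 with the 5 CPM filter. The scaling moves the median of all genes nearly alike. Of 30 changes of single genes, 24 kept their sign under the 4 alternatives of pseudocount, scale and reference, and 6 changed it. These were BCL2 in the si-PTBP1 library with median-ratio scaling and, with the 3-library reference, BCL2L1, BCL2L11 and BID in the si-lncRNA-LBCS-labelled library, BIK in the si-PTBP1 library and BMF in the si-hnRNPK library. No paired analysis was possible because each condition has 1 library. For BIK, with 7 to 16 reads, and BMF, with 48 to 186, depth limits the precision.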
